A study of Rattus norvegicus with 13 samples.

Results

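The transcripts described here encode the cytochrome P450 enzymes of families CYP1 to CYP4, which oxidise drugs, steroids, retinoids and fatty acids in liver. A probe set was taken as a member when every gene symbol annotated to it began with Cyp, a single digit from 1 to 4 and a letter. Cyp2e1 and the Cyp4a genes were left out. The rule uses names alone and gave 66 of the 8740 non-control probe sets, which carry 37 gene symbols. Of these 66, 10 named more than 1 symbol, because P450 paralogs share much of their sequence. Names ending in _s_at (31 members) or _f_at (10 members) mark probe sets whose probes match several transcripts or a whole family, so a signal there can come from more than the gene named.

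Hepatic RNA of time-mated female Sprague Dawley rats was hybridised to 13 one-colour Affymetrix rat arrays. The control group, TEN-220 (n = 3), received an ethanol-free diet. Its daily energy supply was 220 kcal per kg body weight raised to 0.75. The ethanol-fed group EtOH-220 (n = 3) had the same energy supply and took in 12 g ethanol per kg per day. TEN-160 (n = 3) was an undernourished group on an ethanol-free diet of 160 kcal, and EtOH-160 (n = 4) was undernourished at 160 kcal while taking in 12 g ethanol per kg per day. All the rats of these groups were therefore mated females of 1 outbred strain. Their age and day of gestation are not given in the sources used here, nor is it stated whether an array stands for a single liver or for pooled RNA. P-values thus describe only the spread between these 13 samples, which may be technical in part.

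Microsomal P450 enzymes sit in the endoplasmic reticulum of hepatocytes, receive electrons from P450 oxidoreductase and insert oxygen into lipophilic substrates. The CYP2B and CYP3A genes are textbook targets of the constitutive androstane receptor (CAR) and the pregnane X receptor (PXR), and the CYP1 genes of the aryl hydrocarbon receptor (AHR). In rats, many CYP2A, CYP2C and CYP3A genes differ between the sexes under the pituitary's growth hormone pattern, and pregnancy and energy intake also bear on that axis.

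Promoter sequences are shown for the CYP3A and CYP2B genes, because these subfamilies held the largest changes between the diets. They were read from RefSeq on the rat build GRCr8, which gave a window for 31 of the 37 member genes. Each line holds the 250 bases before the annotated start, 5′ to 3′ on the gene's strand. Capitals in the first pair mark TGAACTNNNTGAACT, a direct repeat of a nuclear receptor half-site with 3 bases between the copies. The windows are those of Cyp3a23-3a1 (chr12:14398804-14399053, minus strand) and Cyp3a2 (chr12:14343858-14344107, minus strand), neighbours in a cluster of 3 member genes on chromosome 12.
Cyp3a23-3a1: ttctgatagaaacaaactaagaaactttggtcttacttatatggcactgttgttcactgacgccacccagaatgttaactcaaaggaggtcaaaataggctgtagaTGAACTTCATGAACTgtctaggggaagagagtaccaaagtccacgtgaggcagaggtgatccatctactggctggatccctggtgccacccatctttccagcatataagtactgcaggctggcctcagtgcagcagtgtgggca
Cyp3a2: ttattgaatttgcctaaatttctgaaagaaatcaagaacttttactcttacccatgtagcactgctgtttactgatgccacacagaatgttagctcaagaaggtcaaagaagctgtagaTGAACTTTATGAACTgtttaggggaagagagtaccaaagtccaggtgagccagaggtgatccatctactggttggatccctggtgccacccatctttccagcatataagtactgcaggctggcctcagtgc
Of 33469 rat promoter windows searched on both strands from 250 bases before to 50 after the start, 2 (0.00598%) held this repeat, and they were these. The copy of Cyp3a23-3a1 lay at bases -144 to -130 from the start and that of Cyp3a2 at -131 to -117. The half-site TGAACT alone, which overlaps the repeat, was found in 14.5% of all windows and in 9 of the 31 member windows. Capitals in the next 3 lines mark TTGCATAA, a C/EBP-type motif, in Cyp2b1 (chr1:90645869-90646118, plus strand), Cyp2b2 (chr1:90722031-90722280, plus strand) and Cyp2b3 (chr1:90780242-90780491, plus strand).
Cyp2b1: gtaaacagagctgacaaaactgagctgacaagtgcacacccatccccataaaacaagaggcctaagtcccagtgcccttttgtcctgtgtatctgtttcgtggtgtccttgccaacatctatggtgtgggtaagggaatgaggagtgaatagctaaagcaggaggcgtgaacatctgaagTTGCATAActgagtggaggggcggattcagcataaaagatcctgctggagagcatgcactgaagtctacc
Cyp2b2: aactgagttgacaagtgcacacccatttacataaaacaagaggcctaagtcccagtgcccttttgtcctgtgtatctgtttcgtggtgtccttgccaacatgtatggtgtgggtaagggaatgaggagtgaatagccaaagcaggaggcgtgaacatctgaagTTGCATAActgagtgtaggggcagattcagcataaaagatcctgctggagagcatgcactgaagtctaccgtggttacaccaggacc
Cyp2b3: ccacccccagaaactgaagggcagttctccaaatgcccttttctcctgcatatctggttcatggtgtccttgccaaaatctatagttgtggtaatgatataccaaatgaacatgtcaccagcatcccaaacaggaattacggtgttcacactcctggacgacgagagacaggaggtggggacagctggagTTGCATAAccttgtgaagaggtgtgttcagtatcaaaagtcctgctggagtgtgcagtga
This motif occurred in 0.863% of all windows and in 4 of the 31 member windows, those of Cyp2b1, Cyp2b2, Cyp2b3 and Cyp2a3. In alignments of the whole windows, Cyp2b1 and Cyp2b2 were identical at 86.8% of aligned positions. Cyp2b3 matched Cyp2b1 at 55.9% and Cyp2b2 at 55.3%. These 3 genes lie in a cluster of 10 member genes (CYP2A, CYP2B, CYP2F and CYP2G) on chromosome 1. A match is a description of the letters and was not tied to binding of any factor.

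The values are MAS5 signals, put on a common scale by quantile normalization because TEN-220 replicate 1 had been deposited on a lower scale than the other 12 arrays. In the hepatocyte marker list (Alb, Ttr, Apoa1 and others), 9 of 10 genes had a probe set, none was below background on every array, and the summed signal was 221900 to 244300 over the 13 arrays. It was higher on all TEN-220 arrays (236900 to 244300) than on all EtOH-160 arrays (224900 to 235900), and the other pairs of groups overlapped. The 3 arrays of TEN-160 were separate from all others in the first principal component of all tested probe sets, at 31 to 43.1 against -13.6 to -2.98. They also differed in the 5′ to 3′ signal ratio of the spiked BioDn control, at 0.422 to 0.497 against 0.132 to 0.210 elsewhere. RNA integrity can be read from the GAPDH 3′ to 5′ ratio, which ranged over 1.53 to 2.32 (TEN-220), 1.04 to 1.47 (EtOH-220), 1.03 to 1.24 (TEN-160) and 1.51 to 1.73 (EtOH-160). The part of these differences in the results was not tested. In whole liver RNA, fewer cells of a type and less RNA per cell cannot be told apart.

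Of the 66 members, 51 (32 symbols) passed the filter on low mean signal and were tested, and 15 did not. Changes are differences of mean log2 signal between groups, each printed ± its model-based standard error (SE), and p-values were adjusted over all tested probe sets. Of the 51, 49 lay above a background signal of 44 on all 13 arrays. With ethanol at 160 kcal (EtOH-160 relative to TEN-160), 15 of the 51 were called higher, at an adjusted p under 0.05 from limma, and 4 lower. Over all 5244 tested probe sets 11.9% were called higher and 10.4% lower, against 29.4% and 7.84% of the members. The median member change was 0.32 on the log2 scale and that of all tested probe sets 0.02. Of the 15 higher calls, 7 were probe sets naming Cyp2b1, Cyp2b2 or Cyp2b15 and 2 were probe sets naming Cyp3a23-3a1. The 39 other tested members had 6 higher and 4 lower calls and a median change of -0.04. With ethanol at 220 kcal (EtOH-220 relative to TEN-220), no member was called in either direction by limma, where the background was 0% higher and 0.0191% lower. At an unadjusted p under 0.05, 15 members were higher and 0 lower in that comparison, beside 4.81% and 5.19% of all probe sets, and 39 of the 51 changes were positive, with a median of 0.24 against -0.04 for all probe sets. The EtOH-220 arrays lay wholly above the TEN-220 arrays for 13 of 51 members (25.5%), as they did for 7.93% of all probe sets.

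With both treatments against the control (EtOH-160 minus TEN-220), 7 members were called higher and 1 lower by limma, where 1.33% and 0.896% of all probe sets were. These 8 calls became 2 to 10 when 1 array was left out, with 2 without TEN-220 replicate 3, 3 without either other TEN-220 array, 4 without EtOH-160 replicate 2 or 3 and 5 without its replicate 1. The EtOH-160 arrays lay wholly above TEN-220 for 15 members (29.4%), and for 7.8% of all probe sets. The 39 members outside the probe sets of Cyp2b1, Cyp2b2, Cyp2b15 and Cyp3a23-3a1 held 1 of the 7 higher calls, the lower call and 7 of these 15. Lower energy without ethanol (TEN-160 relative to TEN-220) gave 4 higher and 2 lower calls among the members, or 7.84% and 3.92%, beside 7.84% and 9.94% of all probe sets. Called or not, TEN-160 and TEN-220 did not overlap for 18 members (35.3%) and for 36.5% of all probe sets. EtOH-160 and TEN-160 did not overlap for 21 members (41.2%) and for 31.1% of all probe sets. Lower energy with ethanol (EtOH-160 relative to EtOH-220) gave no call among the members by limma, against a background of 0.21% higher and 0.0763% lower. At an unadjusted p under 0.05, 5 members were higher and 2 lower there, beside 6.12% and 5.02% of all probe sets. The interaction, which is the ethanol change at 160 kcal minus that at 220 kcal, was called positive for 1 member and negative for 2, beside 4.04% and 3.09% of all probe sets. Comparisons that use the same group share its arrays, so a high or low TEN-160 group enters the ethanol change at 160 kcal and the energy change without ethanol with opposite signs.

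**Figure D1:**
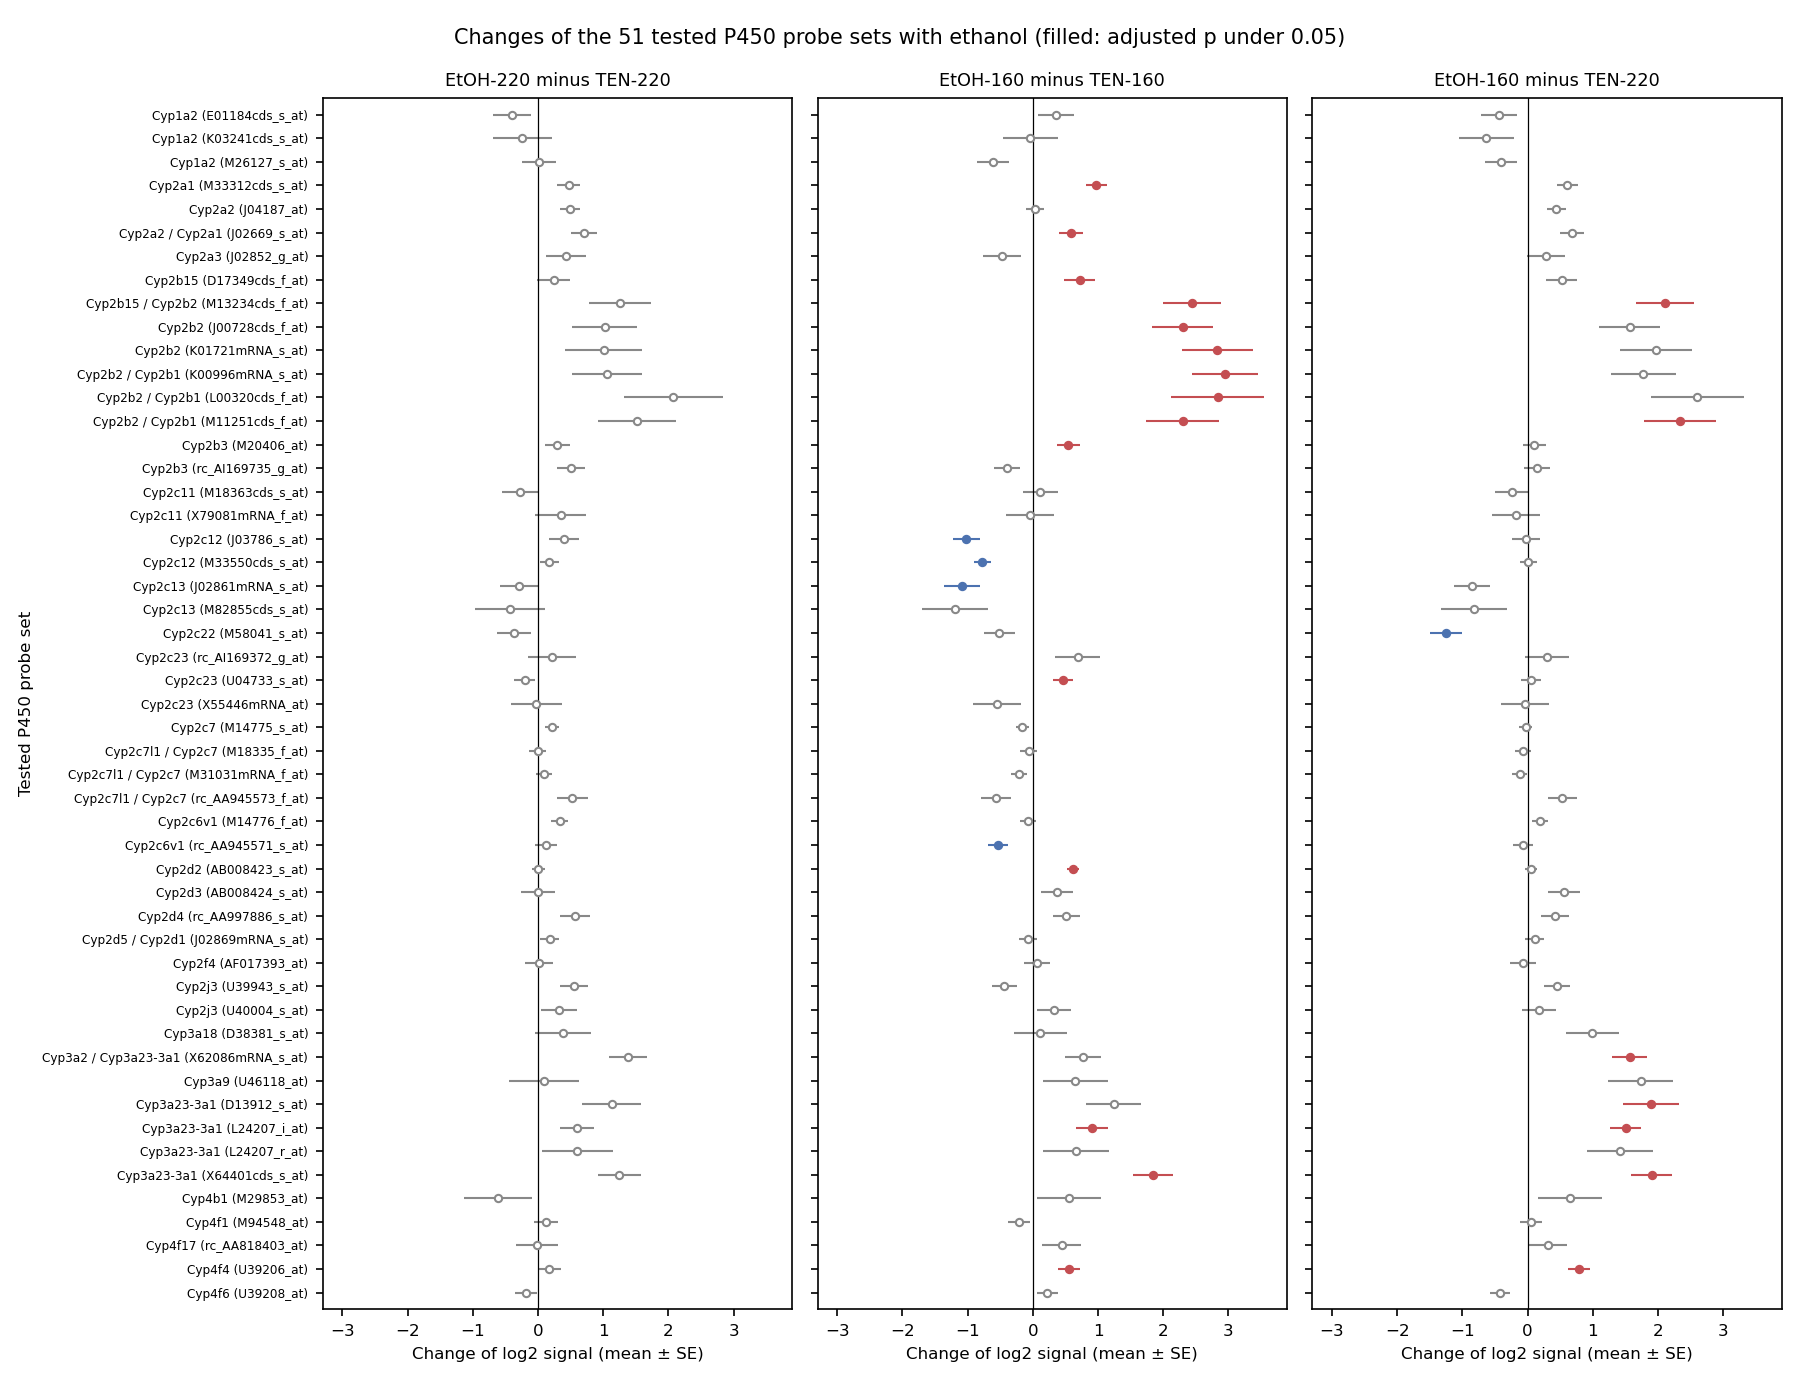
Change of log2 signal (x axis, mean ± SE from the model) for the 51 tested P450 probe sets (rows, with gene and probe set) in EtOH-220 minus TEN-220, EtOH-160 minus TEN-160 and EtOH-160 minus TEN-220. Filled red and blue points are called higher and lower at an adjusted p under 0.05, open points are not called. The left panel has no filled point, the middle one has 15 higher and 4 lower, and the right one 7 higher and 1 lower.

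The CYP2B genes held the largest ethanol changes. Cyp2b1 and Cyp2b2 encode near-identical enzymes known for their strong response to phenobarbital, and Cyp2b15 is a paralog better known from skin glands. All 7 probe sets that name 1 or more of these 3 genes rose with ethanol at 160 kcal, by 0.72 to 2.95 with a median of 2.44. The 7 may read the same transcripts in part, so they are not counted as independent genes, and the contribution of Cyp2b1, Cyp2b2 and Cyp2b15 cannot be told apart. With ethanol at 220 kcal all 7 changes were positive, 0.24 to 2.07 with a median of 1.05, and none was called (limma, adjusted p = 0.406 to 0.797).

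Cyp2b2 (K01721mRNA_s_at) gave signals of 1603, 2340.5 and 766 in TEN-220, 4891, 2178 and 2192 in EtOH-220, 1430.2, 745 and 444 in TEN-160, and 10831, 8040.2, 5195 and 2087 in EtOH-160. All 4 EtOH-160 arrays were above the 3 TEN-160 arrays, while EtOH-220 and TEN-220 overlapped. It rose with ethanol at 160 kcal by 2.83 ± 0.55 (7.12-fold, adjusted p = 0.00304), and its change at 220 kcal was 1.01 ± 0.59 (adjusted p = 0.604). The probe set for Cyp2b2 and Cyp2b1 together (K00996mRNA_s_at) read 1041, 1408 and 659 in TEN-220, 4323, 1504 and 1324 in EtOH-220, 616, 435 and 314 in TEN-160, and 6437, 4546, 3363 and 1336 in EtOH-160. Its TEN-160 arrays lay below all other 10 arrays, which is a pattern that 3 members (5.88%) and 7.19% of all tested probe sets showed. It rose by 2.95 ± 0.50 (7.73-fold, adjusted p = 0.00138) with ethanol at 160 kcal. Without ethanol, its change from 220 to 160 kcal was -1.17 ± 0.54 (adjusted p = 0.151), which missed the threshold.

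The coding-sequence probe set of Cyp2b2 (J00728cds_f_at) showed 1165, 2158 and 890.0 in TEN-220, 3662, 2069.7 and 2478 in EtOH-220, 1416, 829.5 and 414 in TEN-160, and 7500.1, 4323, 3802 and 1837 in EtOH-160. It rose with ethanol at 160 kcal by 2.30 ± 0.47 (adjusted p = 0.00391), again with no overlap between EtOH-160 and TEN-160. For the probe set annotated to Cyp2b15 and Cyp2b2 (M13234cds_f_at) the signals were 1075, 1590.3 and 792 in TEN-220, 3859, 1768 and 2695 in EtOH-220, 1320.1, 974 and 528 in TEN-160, and 9080.2, 5535, 5041 and 2038 in EtOH-160. Both ethanol groups lay wholly above the ethanol-free group of the same energy supply. The rise was 2.44 ± 0.45 (adjusted p = 0.0021) at 160 kcal, and the change at 220 kcal was 1.25 ± 0.48 (adjusted p = 0.44).

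A further pair of family probe sets was annotated to Cyp2b2 and Cyp2b1. L00320cds_f_at read 319.8, 552 and 51.2 in TEN-220, 1244, 762 and 711 in EtOH-220, 316, 248 and 71.1 in TEN-160, and 2421, 1664, 947 and 674 in EtOH-160. M11251cds_f_at read 361, 602 and 144 in TEN-220, 1416, 824 and 634 in EtOH-220, 526, 334 and 191 in TEN-160, and 3012, 1948, 1834 and 589.7 in EtOH-160. In both, every ethanol array lay above every ethanol-free array of the same energy supply. With ethanol at 160 kcal L00320cds_f_at rose by 2.84 ± 0.71 (adjusted p = 0.0124) and M11251cds_f_at by 2.30 ± 0.56 (adjusted p = 0.0105). Without TEN-160 replicate 3 the first of these changes was 2.19 and no longer called (adjusted p = 0.0621). Cyp2b15 alone (D17349cds_f_at) moved least, with 622, 682 and 476 in TEN-220, 674, 691 and 717 in EtOH-220, 673, 555 and 355 in TEN-160, and 1191, 855, 701 and 701 in EtOH-160. Its rise of 0.72 ± 0.24 (adjusted p = 0.0419) ended under 13 of 25 alternatives, among them 8 that left out a single array, namely replicates 1 and 2 of TEN-220 and of EtOH-160 or replicates 2 and 3 of EtOH-220 and of TEN-160 (changes of 0.47 to 0.78, adjusted p = 0.0504 to 0.185).

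The arrays of a group kept much the same order across these 7 probe sets, except in EtOH-220, where replicate 1 was the highest in 6 and the lowest in Cyp2b15 alone (D17349cds_f_at). EtOH-160 replicate 1 was the highest of its group in all 7 and replicate 4 the lowest in 6. TEN-160 replicate 3 and TEN-220 replicate 3 were the lowest of their groups in all 7. Against the control (EtOH-160 minus TEN-220), 2 of the 7 were called. M13234cds_f_at rose by 2.11 ± 0.45 (adjusted p = 0.028) and M11251cds_f_at by 2.33 ± 0.56 (adjusted p = 0.0459). The first call ended without any 1 of the 3 TEN-220 arrays or without EtOH-160 replicate 1, 2 or 3 (1.79 to 2.37, adjusted p = 0.0501 to 0.134). The second ended without any 1 of 10 arrays, all except EtOH-220 replicate 1, TEN-160 replicate 3 and EtOH-160 replicate 4 (1.77 to 2.79, adjusted p = 0.0501 to 0.187). Both calls also ended with no filter and with eBayes without a trend. The second also ended with median-centred values, without the TEN-160 arrays and when only the groups compared were fitted. With lower energy among ethanol-fed rats, all 7 changes were positive, 0.28 to 0.96, and none was called (limma, adjusted p = 0.519 to 0.852).

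Cyp2b3 is a constitutive liver paralog that does not belong to the classic phenobarbital response. Its probe set M20406_at gave 7694, 9315 and 8714 in TEN-220, 10714, 9822 and 10963 in EtOH-220, 7220.4, 7605 and 4526 in TEN-160, and 10567, 9729, 7255 and 9528 in EtOH-160. The EtOH-220 arrays lay above TEN-220, and EtOH-160 overlapped TEN-160. The rise of 0.55 ± 0.18 (adjusted p = 0.0406) with ethanol at 160 kcal was the only Cyp2b3 call among tested probe sets. It ended under 13 of 25 alternatives, including 6 that left out a single array, namely replicate 3 of any of the first 3 groups or replicate 1, 2 or 4 of EtOH-160 (0.31 to 0.55, adjusted p = 0.0501 to 0.184). A second Cyp2b3 probe set (rc_AI169735_g_at) had the opposite sign, -0.40 ± 0.20 (adjusted p = 0.168), with EtOH-160 wholly below TEN-160. The probe sets of Cyp2b3 therefore disagree with each other about the direction. Cyp2b12, a CYP2B gene of skin glands, was too dim to test.

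**Figure D2:**
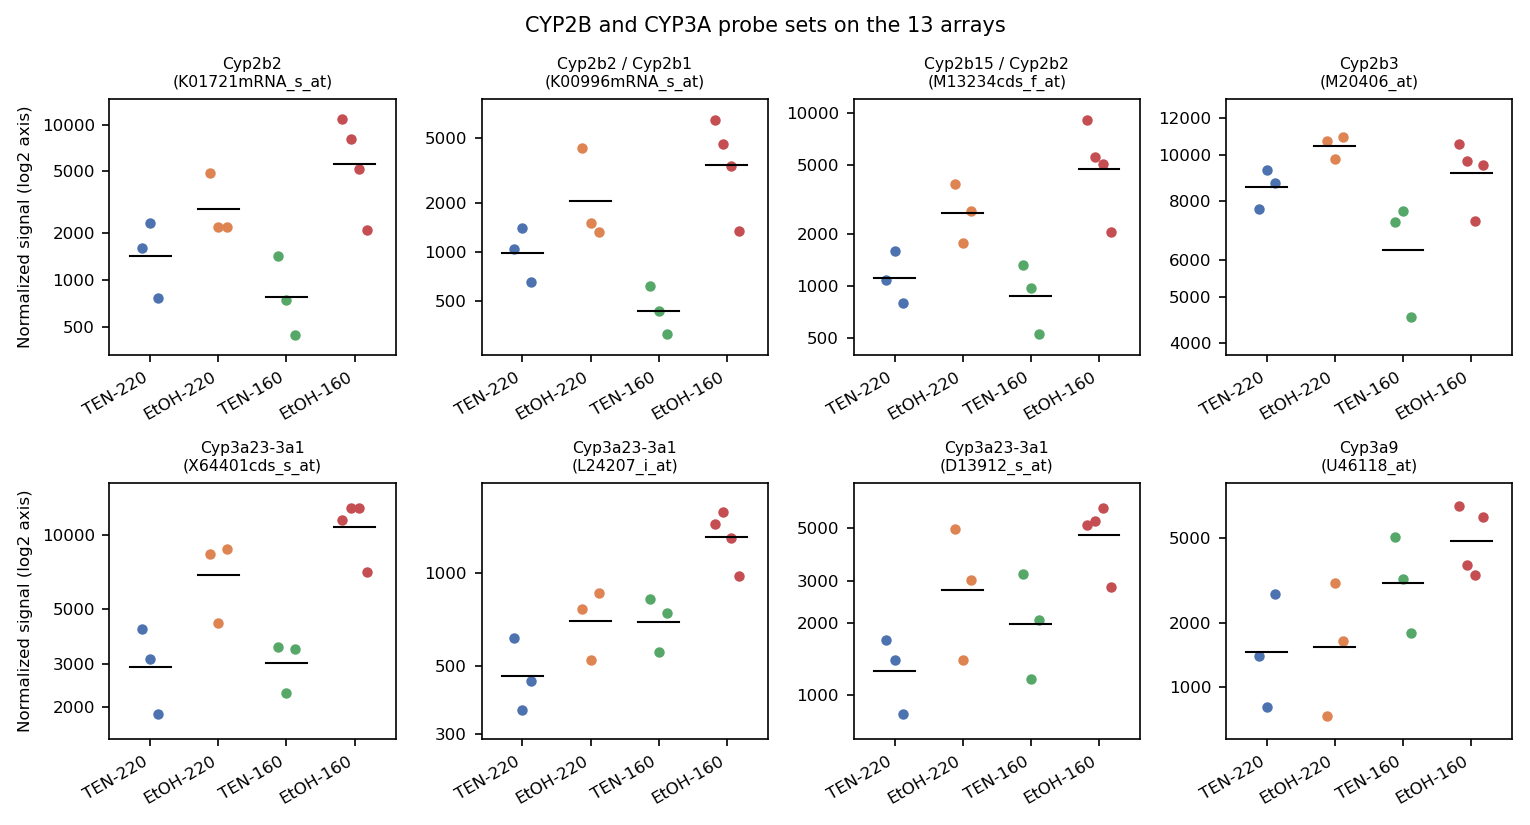
Normalized signal (log2 axis) of 8 CYP2B and CYP3A probe sets on each of the 13 arrays (dots) by diet group, with the geometric mean of the group (bar). For the Cyp2b2 panels and Cyp3a23-3a1 (X64401cds_s_at) all EtOH-160 arrays lie above all TEN-160 arrays. For Cyp3a23-3a1 (L24207_i_at) EtOH-160 lies above all other arrays, at 980.2 to 1586.

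CYP3A enzymes hydroxylate steroids and clear many drugs. All 7 tested CYP3A probe sets had their highest geometric means in the ethanol-fed undernourished rats. The 5 probe sets that name Cyp3a23-3a1, the PXR-responsive CYP3A of rat liver, were all higher in EtOH-160 than in TEN-220 without overlap, and 4 of the 5 were called. Their changes against the control were 1.41 to 1.90, with a median of 1.57. With ethanol alone at 220 kcal the 5 changes were 0.60 to 1.38, and with lower energy alone 0.06 to 0.79, and none of these was called. With ethanol at 160 kcal the changes were 0.66 to 1.84 and 2 of the 5 were called.

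Cyp3a23-3a1 (X64401cds_s_at) gave 4158, 3124 and 1869.6 in TEN-220, 8412, 4394 and 8768 in EtOH-220, 3499, 2280.5 and 3431 in TEN-160, and 11565, 12939, 12939 and 7095 in EtOH-160. Both ethanol groups lay wholly above the ethanol-free groups of their energy level. It rose by 1.84 ± 0.31 (3.59-fold, adjusted p = 0.00129) with ethanol at 160 kcal and by 1.90 ± 0.31 (3.74-fold, adjusted p = 0.00666) against the control. Its change with ethanol at 220 kcal was 1.25 ± 0.33 (adjusted p = 0.254), and with lower energy alone 0.06 ± 0.33 (adjusted p = 0.923). Neither of the calls ended under any alternative tried.

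Cyp3a23-3a1 (L24207_i_at) read 616, 358 and 446 in TEN-220, 766, 523 and 860.2 in EtOH-220, 822, 555 and 741 in TEN-160, and 1440.5, 1586, 1304 and 980.2 in EtOH-160. The EtOH-160 arrays lay above all other arrays, a pattern that 2 members (3.92%) and 1.22% of all tested probe sets showed. The rise was 1.5 ± 0.24 (adjusted p = 0.00591) against the control and 0.91 ± 0.24 (adjusted p = 0.0162) with ethanol at 160 kcal. The second of these calls ended without TEN-160 replicate 2 (0.74, adjusted p = 0.0642) and on the values as deposited. Cyp3a23-3a1 (D13912_s_at) gave 1699, 1406 and 834 in TEN-220, 4949, 1400.0 and 3023 in EtOH-220, 3206, 1172 and 2066 in TEN-160, and 5168, 5368, 6082 and 2836 in EtOH-160. EtOH-160 was above TEN-220 and overlapped the other groups. Its rise against the control was 1.89 ± 0.43 (adjusted p = 0.0361). This call ended under 10 of 26 alternatives, including without any 1 of the TEN-220 arrays, without replicate 3 of EtOH-220, or without any of the first 3 EtOH-160 replicates (1.60 to 2.11, adjusted p = 0.0504 to 0.155).

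The probe set shared by Cyp3a2 and Cyp3a23-3a1 (X62086mRNA_s_at) gave 1049, 871 and 658 in TEN-220, 2785, 1460.0 and 2631 in EtOH-220, 1811, 1007 and 1714 in TEN-160, and 2945, 2454, 2890.3 and 1863 in EtOH-160. The TEN-220 arrays lay below both ethanol groups and overlapped TEN-160. It rose by 1.56 ± 0.27 (adjusted p = 0.00867) against the control, and the call ended without TEN-220 replicate 3 (1.39, adjusted p = 0.0569). With ethanol at 160 kcal the change was 0.77 ± 0.27 (adjusted p = 0.0569), just outside the threshold. Cyp3a2, the male-predominant CYP3A of adult rats, had a probe set of its own (M13646_s_at) that was above background on 1 of the 13 arrays and was not tested. Its promoter is 1 of the pair with the half-site repeat shown above.

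Cyp3a9, a CYP3A more abundant in female rats, gave 1400.0, 812 and 2741 in TEN-220, 738, 3088 and 1644 in EtOH-220, 5079.8, 3234 and 1803 in TEN-160, and 7049, 3758, 3347 and 6305 in EtOH-160. All EtOH-160 arrays lay above all TEN-220 and all EtOH-220 arrays. The changes were 1.74 ± 0.50 (adjusted p = 0.0996) against the control and 1.65 ± 0.50 (adjusted p = 0.204) with lower energy among ethanol-fed rats, and neither was called. Cyp3a18, a male-predominant CYP3A, ranged from 97.9 to 219.7 in TEN-220 and from 224 to 424 in EtOH-160. Its change against the control of 0.99 ± 0.40 (adjusted p = 0.29) was not called.

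The CYP2A genes encode testosterone hydroxylases: Cyp2a1 is the more abundant in females and Cyp2a2 in adult males. Cyp2a1 (M33312cds_s_at) gave 11954, 11733 and 13139 in TEN-220, 12939, 18325 and 20629 in EtOH-220, 9447, 11565 and 7889 in TEN-160, and 17747, 16586, 20773 and 19976 in EtOH-160. Its TEN-160 arrays were below all other arrays. It rose with ethanol at 160 kcal by 0.97 ± 0.16 (1.96-fold, adjusted p = 0.00133), and its change at 220 kcal was 0.47 ± 0.18 (adjusted p = 0.432). The probe set annotated to both genes (J02669_s_at) read 5182, 5813 and 6373 in TEN-220, 9080.2, 9315 and 9974 in EtOH-220, 7300.4, 7419 and 4363 in TEN-160, and 9218, 7281, 10714 and 10238 in EtOH-160. EtOH-220 lay above TEN-220, whereas EtOH-160 and TEN-160 overlapped. It rose by 0.58 ± 0.19 (adjusted p = 0.0366) with ethanol at 160 kcal, a call that ended under 11 of 25 alternatives, including without TEN-160 replicate 3 or EtOH-160 replicate 1, 3 or 4 (0.32 to 0.59, adjusted p = 0.0683 to 0.169).

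Cyp2a2 alone (J04187_at) gave 835, 878 and 777 in TEN-220, 1287, 1062 and 1155 in EtOH-220, 1140.3, 1276 and 912 in TEN-160, and 1140.3, 1109.6, 1118 and 1136 in EtOH-160. Its TEN-220 arrays lay below all other arrays, as they did for 1 member (1.96%) and for 0.915% of all tested probe sets. The changes were 0.49 ± 0.15 (adjusted p = 0.327) with ethanol at 220 kcal, 0.41 ± 0.15 (adjusted p = 0.0821) with lower energy alone and 0.03 ± 0.14 (adjusted p = 0.893) with ethanol at 160 kcal, and none was called. Cyp2a3, known from lung and nasal tissue, had a probe set at the floor on all 13 arrays and another with signals of 53.2 to 155 that was not called in any comparison.

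Among the CYP2C genes, Cyp2c12, a steroid sulfate hydroxylase that marks female rat liver, was highest in undernourished rats without ethanol. Probe set M33550cds_s_at gave 7956, 7911 and 10238 in TEN-220, 11142, 9636 and 8648 in EtOH-220, 16114, 15196 and 13308 in TEN-160, and 9528, 8412, 7859.8 and 9030.3 in EtOH-160. The TEN-160 arrays lay above all other arrays, a pattern shared by 2 members (3.92%) and by 7.59% of all tested probe sets. Probe set J03786_s_at read 5836, 6404 and 7911 in TEN-220, 13536, 7463 and 6741 in EtOH-220, 15097, 13904 and 11142 in TEN-160, and 7366, 5893, 6062 and 7030.1 in EtOH-160. Here TEN-160 lay above TEN-220 and EtOH-160, and EtOH-220 replicate 1 reached into the TEN-160 range.

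With lower energy alone Cyp2c12 rose by 0.78 ± 0.14 (1.72-fold, adjusted p = 0.00245) and 0.99 ± 0.23 (adjusted p = 0.00899) in these probe sets. With ethanol at 160 kcal it fell by 0.77 ± 0.13 (adjusted p = 0.00145) and 1.02 ± 0.21 (adjusted p = 0.00452). At 220 kcal the ethanol changes were 0.18 ± 0.14 (adjusted p = 0.718) and 0.40 ± 0.23 (adjusted p = 0.581). The difference between the ethanol changes, tested as the interaction, was -0.95 ± 0.19 (adjusted p = 0.0128) and -1.42 ± 0.31 (adjusted p = 0.0172), and both were called. Without TEN-220 replicate 1 the second was -1.33 and not called (adjusted p = 0.0530). On the values as deposited neither interaction was called. EtOH-160 against TEN-220 differed by 0.01 ± 0.13 (adjusted p = 0.989) and -0.02 ± 0.21 (adjusted p = 0.981).

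Cyp2c11 and Cyp2c13 encode steroid hydroxylases that are normally abundant in male rats and scarce in females. Cyp2c13 (J02861mRNA_s_at) read 229, 128 and 124 in TEN-220, 174, 121 and 94.2 in EtOH-220, 208, 194 and 147 in TEN-160, and 84.6, 95.6, 69.1 and 94.1 in EtOH-160. The EtOH-160 arrays lay below the TEN-160 and the TEN-220 arrays. It fell by 1.09 ± 0.27 (adjusted p = 0.0124) with ethanol at 160 kcal. The other Cyp2c13 probe set (M82855cds_s_at) changed by -1.19 ± 0.50 (adjusted p = 0.105) in the same comparison, which was not called, with EtOH-160 again wholly below TEN-160. Neither of the tested Cyp2c11 probe sets, with ranges of 54.5 to 91.3 and 79 to 288 over the 13 arrays, was called in any comparison.

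Cyp2c6v1, a CYP2C expressed in both sexes, fell with ethanol at 160 kcal in 1 of its 2 probe sets. That probe set (rc_AA945571_s_at) gave 11407, 11407 and 12653 in TEN-220, 16497, 11142 and 11509.5 in EtOH-220, 13980.1, 18823 and 16497 in TEN-160, and 12825, 10512, 12017 and 9784 in EtOH-160, with EtOH-160 wholly below TEN-160. The fall of 0.54 ± 0.15 (adjusted p = 0.0239) ended under 7 of 25 alternatives, including without TEN-160 replicate 2 or 3 or EtOH-160 replicate 2 or 4 (-0.52 to -0.43, adjusted p = 0.0525 to 0.0908). The other (M14776_f_at) changed by -0.07 ± 0.12 (adjusted p = 0.743).

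Cyp2c7, a female-predominant CYP2C that also hydroxylates retinoids, had 4 tested probe sets, and 1 of them was called. Probe set M18335_f_at, which also names Cyp2c7l1, gave 24761, 27415 and 25429.6 in TEN-220, 31178, 26089.5 and 20934 in EtOH-220, 26369, 27219 and 23578 in TEN-160, and 27712, 24466, 23578 and 22786 in EtOH-160. Its groups overlapped in all comparisons. The called probe set (rc_AA945573_f_at, naming Cyp2c7l1 and Cyp2c7) read 14099, 7300.4 and 14214 in TEN-220, 12162, 19079 and 18948 in EtOH-220, 25673, 24985 and 22110.4 in TEN-160, and 13678, 15196, 18325 and 19079 in EtOH-160. Its TEN-160 arrays lay above all others, and it rose with lower energy alone by 1.09 ± 0.24 (adjusted p = 0.0081). The other 3 changed by 0.13, 0.09 and -0.01 in that comparison, and none of them was called.

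Cyp2c22, a CYP2C of hepatocytes that has been described as a retinoic acid hydroxylase, was the member called lower against the control. Its signals were 10567, 13308 and 9822 in TEN-220, 11509.5, 8147 and 6889 in EtOH-220, 7500.1, 8114 and 4851 in TEN-160, and 6140.5, 5051, 3194 and 4815 in EtOH-160. EtOH-160 lay wholly below both 220 kcal groups, and TEN-160 lay below TEN-220. It fell by 1.25 ± 0.24 (2.38-fold, adjusted p = 0.0171) from TEN-220 to EtOH-160. The single steps were not called: -0.37 ± 0.26 (adjusted p = 0.672) with ethanol at 220 kcal, -0.74 ± 0.26 (adjusted p = 0.0626) with lower energy alone, -0.51 ± 0.24 (adjusted p = 0.146) with ethanol at 160 kcal and -0.89 ± 0.24 (adjusted p = 0.142) with lower energy among ethanol-fed rats. The call ended without any 1 of the 3 TEN-220 arrays (-1.34 to -1.13, adjusted p = 0.0501 to 0.0809). It also ended with no filter and on the values as deposited.

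**Figure D3:**
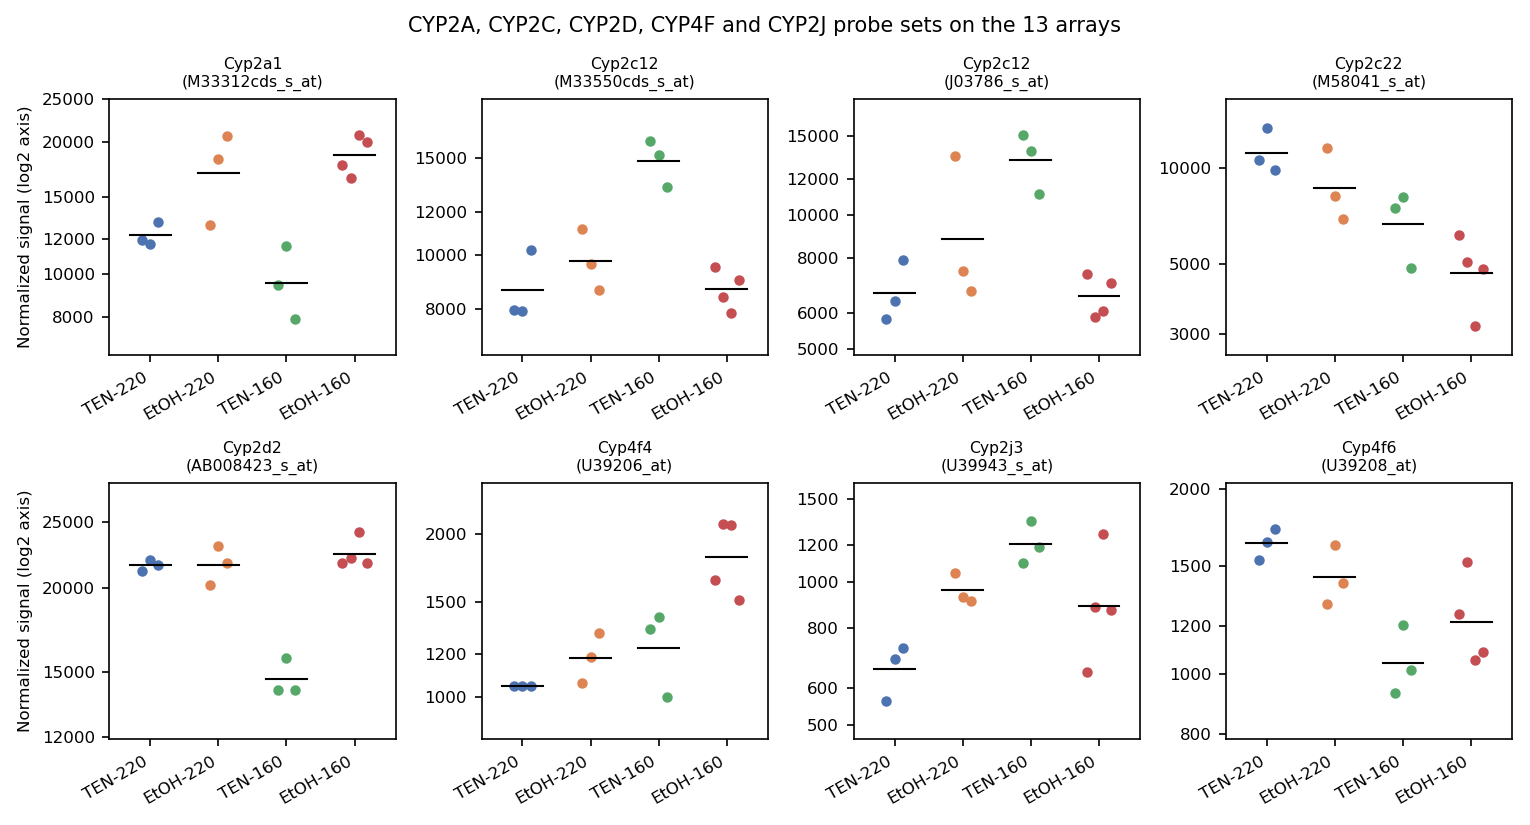
Normalized signal (log2 axis) of 8 probe sets for Cyp2a1, Cyp2c12, Cyp2c22, Cyp2d2, Cyp4f4, Cyp2j3 and Cyp4f6 on each of the 13 arrays (dots) by diet group, with the geometric mean of the group (bar). The TEN-160 arrays lie apart from the other 3 groups for Cyp2a1 and Cyp2d2 (below) and for Cyp2c12 in M33550cds_s_at (above).

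Among the CYP2D genes, the rat relatives of the human debrisoquine hydroxylase, Cyp2d2 was lowest in the undernourished rats without ethanol, and the other 3 groups overlapped. Its signals (AB008423_s_at) were 21172, 21975 and 21615 in TEN-220, 20179, 23079 and 21744 in EtOH-220, 14099, 15738 and 14099 in TEN-160, and 21744, 22110.4, 24219 and 21744 in EtOH-160. The TEN-160 arrays lay below all 10 others. It fell with lower energy alone by 0.56 ± 0.098 (1.48-fold, adjusted p = 0.00189) and rose with ethanol at 160 kcal by 0.62 ± 0.091 (adjusted p = 0.000617). Its ethanol change at 220 kcal was 0.0033 ± 0.098 (adjusted p = 0.994), and the interaction of 0.61 ± 0.13 (adjusted p = 0.0172) was called. With trimmed-mean scaling in place of quantile normalization the change with lower energy was -0.29 and not called (adjusted p = 0.0957). That scaling left the ethanol change at 160 kcal called at 0.32 (adjusted p = 0.042), and the interaction of 0.34 was no longer called (adjusted p = 0.193). The interaction call also ended with eBayes without a trend. On the values as deposited, where TEN-220 replicate 1 is unscaled, none of the 3 changes was called, with 0.32 for ethanol at 160 kcal (adjusted p = 0.927), 0.35 for lower energy (adjusted p = 0.625) and -0.30 for the interaction (adjusted p = 0.831).

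None of the other 3 tested CYP2D probe sets was called. Cyp2d4, a CYP2D known from brain, ranged from 576 to 796 in TEN-220 and from 989 to 1138 in EtOH-220 (rc_AA997886_s_at). These groups did not overlap, and the change was 0.57 ± 0.23 (adjusted p = 0.451). Cyp2d3 changed by 0.56 ± 0.25 (adjusted p = 0.336) against the control, and the probe set shared by Cyp2d5 and Cyp2d1 by 0.11 ± 0.14 (adjusted p = 0.831).

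The epoxygenases and omega-hydroxylases of fatty acids (Cyp2c23, Cyp2j3 and the CYP4F genes) had 9 tested probe sets, and their calls went different ways. Cyp4f4, a leukotriene and arachidonic acid omega-hydroxylase, gave 1050.5, 1050.5 and 1048 in TEN-220, 1065, 1186 and 1314 in EtOH-220, 1339.5, 1404 and 999 in TEN-160, and 1648, 2085, 2076 and 1512 in EtOH-160. EtOH-160 lay above all other arrays, and the 3 TEN-220 arrays were nearly equal. It rose by 0.55 ± 0.16 (adjusted p = 0.0284) with ethanol at 160 kcal and by 0.79 ± 0.16 (adjusted p = 0.0266) against the control. The first call ended without TEN-160 replicate 3 or EtOH-160 replicate 2 or 3 (0.40 to 0.49, adjusted p = 0.0706 to 0.119). It also ended on the values as deposited and when only the groups compared were fitted. The second call ended without any 1 of the TEN-220 arrays or EtOH-160 replicate 2 or 3 (0.72 to 0.79, adjusted p = 0.0653 to 0.0980). Median-centred values and the values as deposited ended the second call too.

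Cyp4f6, another CYP4F of liver, read 1536, 1639 and 1726 in TEN-220, 1299, 1624 and 1408 in EtOH-220, 932, 1201 and 1017 in TEN-160, and 1253, 1525, 1054 and 1086 in EtOH-160. TEN-160 lay wholly below TEN-220. It fell with lower energy alone by 0.64 ± 0.17 (adjusted p = 0.0193), and this call ended when replicate 2 or 3 of TEN-220, or replicate 1 of TEN-160, was left out (-0.64 to -0.57, adjusted p = 0.0614 to 0.0676). The call also ended on the values as deposited. Cyp4f1, a CYP4F of liver and kidney, gave 6859, 7169.7 and 6741 in TEN-220, 9168, 7281 and 6437 in EtOH-220, 9080.2, 10320.0 and 6140.5 in TEN-160, and 6831, 7049, 8011 and 6889 in EtOH-160. Its groups overlapped in every comparison and no change was called, the largest pairwise change being 0.27 ± 0.18 (adjusted p = 0.337) with lower energy alone and the interaction -0.34 ± 0.25 (adjusted p = 0.423). Cyp4f17, with signals of 71.5 to 182, had no call either, and Cyp4f5 was below background on all 13 arrays.

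Cyp2j3, an arachidonic acid epoxygenase, gave 562, 689 and 727 in TEN-220, 1045, 932 and 915 in EtOH-220, 1098, 1348 and 1184 in TEN-160, and 647, 887, 1264 and 872 in EtOH-160 in probe set U39943_s_at. TEN-220 lay below EtOH-220 and TEN-160. It rose with lower energy alone by 0.88 ± 0.21 (adjusted p = 0.0121). This call ended without TEN-220 replicate 1 (0.77, adjusted p = 0.0582), with median-centred values and on the values as deposited. A second Cyp2j3 probe set (U40004_s_at) did not share the rise, with a change of -0.15 ± 0.28 (adjusted p = 0.758). Cyp2c23, the main epoxygenase of rat kidney, gave 13904, 9974 and 11509.5 in TEN-220, 8984, 9974 and 11733 in EtOH-220, 9488, 8648 and 8412 in TEN-160, and 10784, 13536, 14396 and 10320.0 in EtOH-160 in probe set U04733_s_at. EtOH-160 lay above TEN-160. The rise of 0.46 ± 0.15 (adjusted p = 0.045) ended under 13 of 25 alternatives, including without TEN-220 replicate 3, EtOH-220 replicate 2, any 1 TEN-160 array, or EtOH-160 replicate 2 or 3 (0.38 to 0.50, adjusted p = 0.0577 to 0.121). The other Cyp2c23 probe sets changed by 0.69 and -0.55 there and were not called.

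Cyp1a2, the liver AHR target that oxidises aromatic amines and caffeine, was not called in any comparison. Its probe set E01184cds_s_at gave 4139, 3782 and 3134 in TEN-220, 2509, 3499 and 2458 in EtOH-220, 2645, 2128 and 1666 in TEN-160, and 4248, 1561, 2725 and 2945 in EtOH-160. TEN-160 lay below TEN-220, as it did for 19.2% of all tested probe sets, with a change of -0.80 ± 0.29 (adjusted p = 0.078). M26127_s_at, the brightest Cyp1a2 probe set, gave 3406, 3260 and 2920 in TEN-220, 3830, 3289 and 2679 in EtOH-220, 3983, 4700.5 and 2664 in TEN-160, and 3674, 1643.5, 2263 and 2444 in EtOH-160. With lower energy alone it changed by 0.21 ± 0.26 (adjusted p = 0.633), so the sign depended on the probe set. With ethanol at 160 kcal the 3 Cyp1a2 probe sets changed by 0.36, -0.04 and -0.61. Cyp1a1 was below background on all 13 arrays (9.3 to 22.8), and the 4 probe sets of Cyp1b1, an extrahepatic enzyme, failed the filter. Of those, X83867cds_s_at ranged from 34.5 to 68.

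The P450 genes known mainly from lung and nasal tissue had no call in any comparison. Cyp2f4 gave 728, 864 and 742 in TEN-220, 924, 682 and 774 in EtOH-220, 777, 943 and 479 in TEN-160, and 744, 720.5, 715 and 767 in EtOH-160, and its largest pairwise change was -0.14 ± 0.22 (adjusted p = 0.707) with lower energy alone. Cyp4b1 gave 66.4, 75.7 and 73.3 in TEN-220, 38.2, 20.0 and 136 in EtOH-220, 75.5, 111 and 52.4 in TEN-160, and 122, 103, 126 and 100 in EtOH-160. EtOH-160 lay above TEN-220, and the change of 0.64 ± 0.49 (adjusted p = 0.633) was not called. Cyp2g1, the olfactory P450, ranged from 18.7 to 116 in probe set M31931cds_s_at and was not tested.

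**Figure D4:**
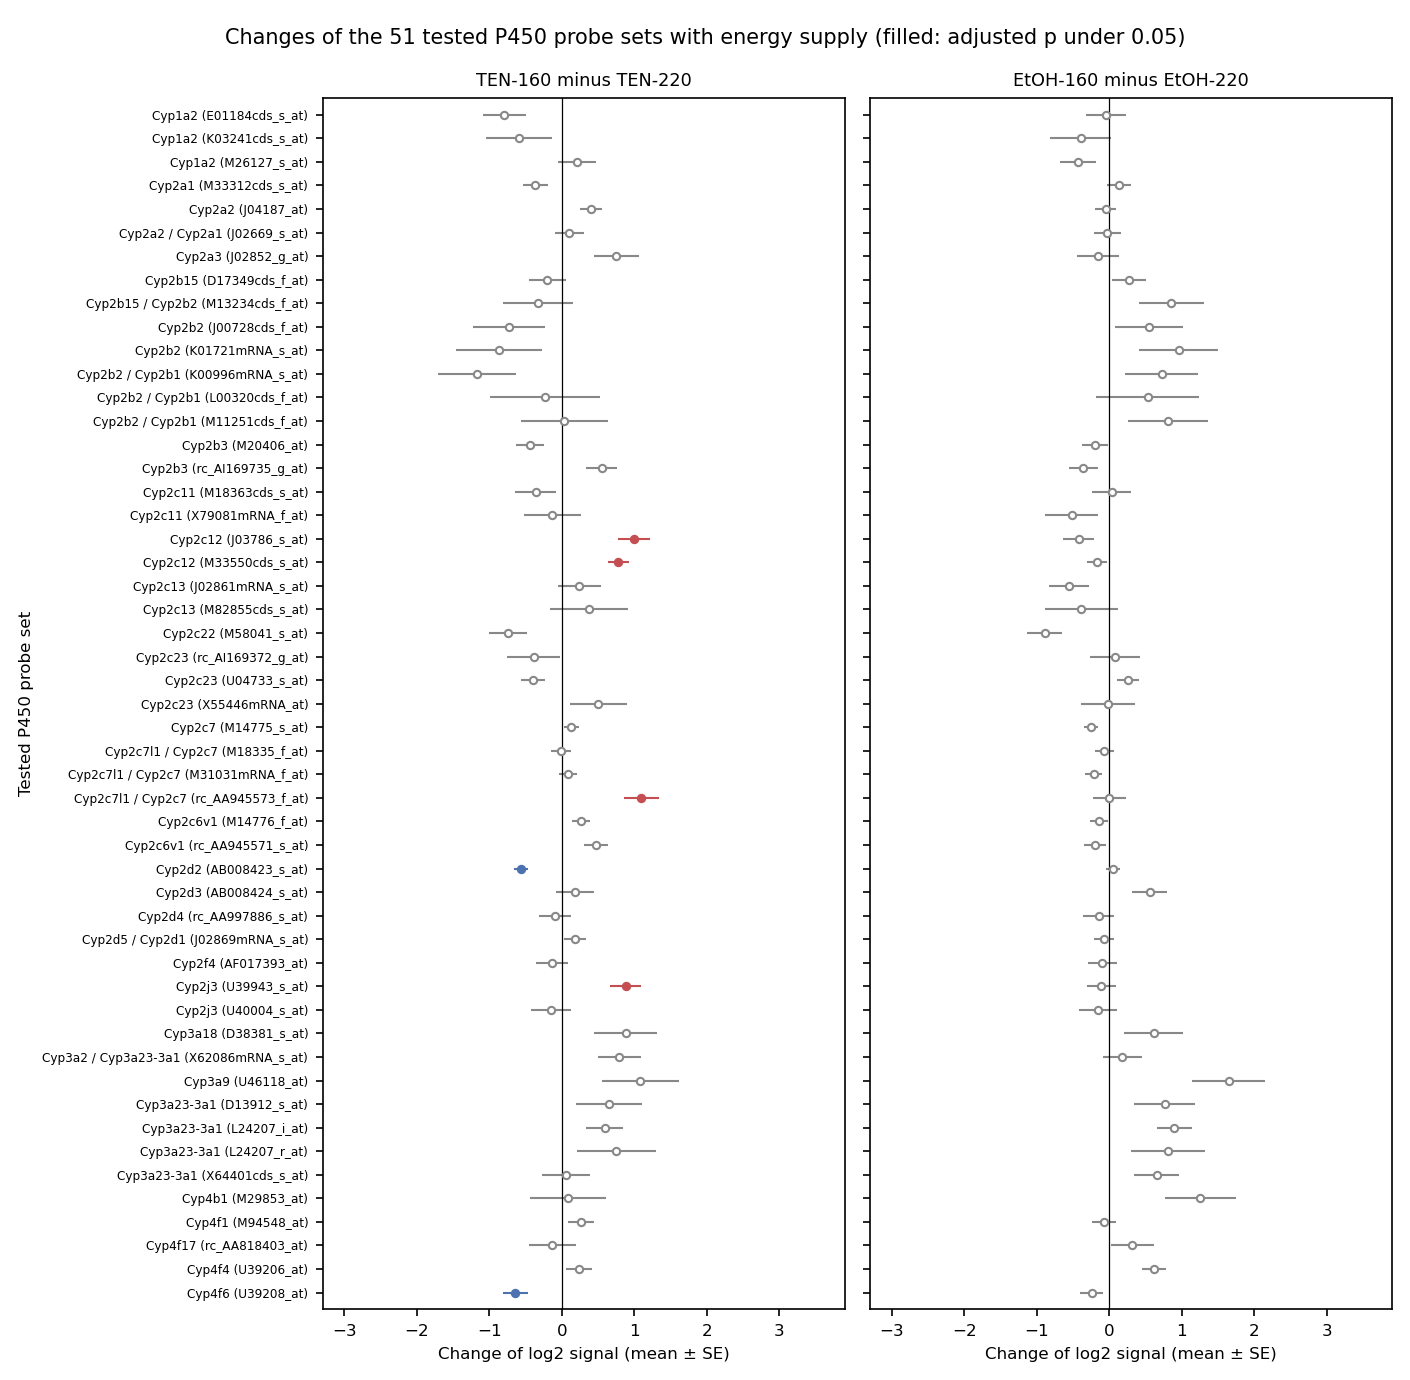
Change of log2 signal (x axis, mean ± SE from the model) for the 51 tested P450 probe sets (rows, with gene and probe set) in TEN-160 minus TEN-220 and EtOH-160 minus EtOH-220. Filled points are called at an adjusted p under 0.05: in the left panel 4 higher (Cyp2c12 in 2 probe sets, Cyp2c7l1/Cyp2c7 and Cyp2j3) and 2 lower (Cyp2d2 and Cyp4f6), in the right panel 0.

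Grouped by sex bias, the 9 tested probe sets of female-predominant genes (Cyp2a1, Cyp2c7, Cyp2c12 and Cyp3a9) had 2 higher and 2 lower calls with ethanol at 160 kcal. Their median change was -0.16. Over all probe sets 11.9% were called higher and 10.4% lower in that comparison. With lower energy alone 3 of the 9 were called higher and 0 lower, beside 7.84% and 9.94% of all probe sets, with a median of 0.13. The 8 of male-predominant genes (among them Cyp2a2, Cyp2c11, Cyp2c13 and Cyp3a18) had 1 higher and 1 lower call with ethanol at 160 kcal, and none with lower energy alone, where their median was 0.31 and 6 of the 8 changes were positive. Probe sets that name genes of both kinds were counted under each. The 1 higher call of the male-predominant genes was such a probe set, shared by Cyp2a2 and Cyp2a1 (J02669_s_at). Cyp2a2 alone (J04187_at) changed by 0.03 with ethanol at 160 kcal. Cyp3a2 entered only through the probe set it shares with Cyp3a23-3a1.

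Genes that work with the P450 enzymes or control them were described from lists of 34 regulators, 20 electron partners and haem genes, and 25 other targets of CAR, PXR and AHR. The receptors Nr1i3 (CAR) and Nr1i2 (PXR) had no probe set that names them alone. With ethanol at 160 kcal, 11.9% of all tested probe sets were called higher and 10.4% lower, with a median change of 0.02. Of 26 tested regulators, 5 rose there and none fell, with a median change of 0.20. They were Cebpa (0.84 ± 0.14, adjusted p = 0.00117), Cebpb (0.62 ± 0.14, adjusted p = 0.00656), Nr0b2 (1.08 ± 0.25, adjusted p = 0.00851), Dbp (3.62 ± 0.90, adjusted p = 0.0118) and Thra (0.81 ± 0.28, adjusted p = 0.0484). Cebpa and Cebpb encode C/EBP factors of hepatocytes, Nr0b2 the corepressor SHP, and Dbp a clock output factor. The Dbp arrays spread widely, from 41.2 to 1139 in EtOH-160 and from 18.6 to 52.1 in TEN-160, around the background of 44. For Thra, a thyroid hormone receptor, the tested probe sets disagreed, with changes of -1.37 to 1.34. With lower energy alone, where 7.84% of all probe sets were called higher and 9.94% lower, 2 of the 26 rose. These were Ahr (1.18 ± 0.38, adjusted p = 0.0467) and Hlf (0.87 ± 0.20, adjusted p = 0.0104). In the same comparison 3 fell, by 1.16 ± 0.15 for Cebpb (adjusted p = 0.000276), by 0.59 ± 0.15 for Cebpa (adjusted p = 0.0152) and by 0.98 ± 0.27 for Nr0b2 (adjusted p = 0.0233). The interaction was called positive for Cebpb and Cebpa and negative for Hlf, at 1.37, 0.88 and -1.12, and the other Cebpa probe set gave -0.68. Over all probe sets it was called positive for 4.04% and negative for 3.09%.

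Of 14 tested electron partners and haem genes, 1 was called higher and 1 lower with ethanol at 160 kcal, beside 11.9% and 10.4% of all probe sets. Por, the oxidoreductase that feeds electrons to every microsomal P450, rose by 0.72 ± 0.18 (adjusted p = 0.0132). Its signals in that probe set did not overlap (TEN-160 at 536.2 to 868.3, EtOH-160 at 1060.0 to 1318), but over its tested probe sets the change ranged from -0.38 to 0.72. Pgrmc1, a membrane haem protein that binds P450 enzymes, fell by 0.69 ± 0.18 in that comparison (adjusted p = 0.0177) and rose by 0.90 ± 0.20 with lower energy alone (adjusted p = 0.00755). Hmox1, which breaks down haem, was called in the interaction (1.74 ± 0.42, adjusted p = 0.0283). Neither Alas1, the first enzyme of haem synthesis, nor Cyb5a, which passes electrons to some P450 enzymes, was called in any comparison. Of 14 tested CAR, PXR and AHR targets outside the P450 families, 2 were called higher with ethanol at 160 kcal, Por and Aldh1a1 (1.08 ± 0.24, adjusted p = 0.0073). With lower energy alone 1 was called higher, the transporter Slco1a4 (1.32 ± 0.29, adjusted p = 0.00803). The shares called higher over all probe sets were 11.9% and 7.84%. None of the 3 lists had a call in the remaining pairwise comparisons.

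P450 enzymes differ along the liver lobule, so zonal markers were read beside them. The summed signal of 9 measured periportal genes was 46750 to 70210 in EtOH-160, above TEN-220 (27120 to 36590), EtOH-220 (38340 to 40790) and TEN-160 (29460 to 33670), and none of the 9 was below background on every array. Of these 9, 5 rose with ethanol at 160 kcal and none fell. Over all tested probe sets 11.9% were called higher and 10.4% lower in that comparison, which the next call counts also use. The sum over 8 measured pericentral genes without P450 genes overlapped, at 8597 to 14000 in EtOH-160 and 7846 to 10620 in TEN-160. Of 6 tested pericentral genes, 1 was called higher and 0 lower, with a median change of 0.45. In the macrophage list the sum was 5333 to 6410 in EtOH-160 and 7569 to 9178 in TEN-160, with 3 of 6 tested genes called lower and 1 higher. For stellate cells and fibroblasts it was 1763 to 2532 (EtOH-160) and 2711 to 5529 (TEN-160), with 2 of 5 tested genes called lower and Des below background on every array. The part of these markers in the P450 changes was not tested. Outside the rule, 2 of 3 Cyp2e1 probe sets rose with ethanol at 160 kcal, by 0.46 and 0.67 (limma, adjusted p = 0.0413 and 0.0140). These 2 changed by -0.53 and -0.59 with lower energy alone (adjusted p = 0.0356 and 0.0401). Their changes were -0.01 and 0.002 with ethanol at 220 kcal and -0.07 and 0.08 against the control. With ethanol at 160 kcal, 2 of 3 Cyp4a1 probe sets rose by 1.16 and 1.19 (adjusted p = 0.0031 and 0.00089).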

How the data were processed

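The deposited values are intensity signals on a linear scale that the authors made with MAS5, per the submitters' processing notes. No MAS5 version was found in the labels. After trimming, mean deposited signal was 132.1 on TEN-220 replicate 1 and 495.2 to 498.3 on the other 12 arrays. The 8740 non-control probe sets were quantile-normalized (limma 3.58.1, R 4.3.3), floored at the 10th percentile (9.338) and taken to log2. The 40% with the lowest mean were left out, which left 5244. Background (44) is the 95th percentile over the array's 19 foreign control sequences. Group means were fitted with lmFit and eBayes with a trend, and two-sided p-values were adjusted by Benjamini-Hochberg separately for the 6 comparisons, with calls under 0.05. Precision is limited by how few arrays there are, with a median member SE of 0.245 to 0.262 in the pairwise comparisons.

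Signals are given for members called in any comparison, members with a group apart from the other 3, and the highest-signal probe set of each subfamily. Other members shown include Cyp3a9, a further Cyp1a2 probe set (E01184cds_s_at) and a dim Cyp2b3 probe set (rc_AI169735_at). Genes of the lists enter by the brightest probe set that names them alone, whether or not it passed the filter. The members and lists were chosen with earlier results of these data known. No pairing of the arrays by replicate number was seen: of 18 same-numbered pairs, 0 had a correlation of deviations over 0.1 (-0.112 to 0.0853). With so few arrays per group these correlations cannot exclude a pairing. Of 78 pairs of arrays, 0 held identical values. Symbols come from the array's probe annotation, and 37 of 37 gene IDs matched RefSeq. The fit was tested on simulated data. Alternatives covered scaling, filter, variance model, array weights, a replicate block and leaving out arrays. Python 3.11.15 with matplotlib 3.10.9 made the plots.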

Additional observations from a re-analysis of the deposited data

Results flagged for a closer look

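For Cyp2d2 (AB008423_s_at), 1 array of EtOH-160 stood apart from the rest of its group: replicate 3 had a signal of 24220, and the other 3 arrays of the group 21740 to 22110. Chance flags about 1 in 20 groups in this way, and of 51 tested members this was the only one flagged.

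The ethanol change differed between the energy levels, by limma's interaction term, for 3 members. It was 0.61 for Cyp2d2 (adjusted p = 0.0172), -1.42 for Cyp2c12 in J03786_s_at (adjusted p = 0.0172) and -0.95 for Cyp2c12 in M33550cds_s_at (adjusted p = 0.0128). The Cyp2d2 call ended with trimmed-mean scaling and with eBayes without a trend. None of the 3 was called on the values as deposited. The interaction is called for 4.04% of all tested probe sets on the positive side and 3.09% on the negative side. The arrays of TEN-160, which enter this term, differed from the others in the BioDn control ratio (0.422 to 0.497 against 0.132 to 0.210), and the part of that in these results was not tested.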

How the results depend on the processing

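The 36 calls of members were recomputed under the alternatives, which gave 905 values. Of these 774 kept the direction and the call, 129 kept the direction without the call, and 2 reversed. Both reversals concern Cyp2d2 on the values as deposited, with 0.35 for lower energy without ethanol and -0.30 for the interaction. On the values as deposited, 5 members were called for ethanol at 220 kcal (0 with the values as reported), 7 for ethanol at 160 kcal (19) and 0 for the interaction (3). Fitting only the groups compared gave 11 for lower energy without ethanol (6). For EtOH-160 against TEN-220 (8), median-centred values gave 5, no filter 4, eBayes without a trend 5 and array weights 17. For the interaction, median-centred values gave 5 and array weights 5. The replicate block, for whose numbers no pairing was seen, gave 5 for the interaction. Leaving out 1 array gave 0 to 1 calls for ethanol at 220 kcal (1 without EtOH-220 replicate 2), 13 to 20 for ethanol at 160 kcal, 5 to 8 for lower energy without ethanol, 0 to 0 for lower energy with ethanol, 2 to 10 for both against the control (2 when TEN-220 replicate 3 was left out, 3 for either other TEN-220 array, 4 for EtOH-160 replicate 2 or 3 and 5 for its replicate 1) and 2 to 4 for the interaction (2 without TEN-220 replicate 1). Over all probe sets, median-centring moved the median change by 0.11 for ethanol at 160 kcal, by -0.13 for lower energy without ethanol and by 0.19 for the interaction, and trimmed-mean scaling moved that of the interaction by -0.11. Where a call changed, the cause was not tested.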

Other observations

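For 12 of the annotated symbol entries more than 1 probe set was tested, and their changes had 1 sign in 7 of 12 entries with ethanol at 160 kcal and in 8 of 12 with ethanol at 220 kcal. The widest disagreement with ethanol at 160 kcal was that of Cyp2c23, at -0.55 to 0.69. Its negative change came from a probe set near background (X55446mRNA_at, 35.3 to 106), and its bright probe sets changed by 0.46 and 0.69. A Cyp2b3 probe set too dim for the filter (rc_AI169735_at) gave 203, 279 and 9.3 in TEN-220 and 10.6, 16 and 11.5 in EtOH-220. It gave 296, 183 and 245 in TEN-160 and 22.3, 53.9, 10 and 11.2 in EtOH-160. It was chosen after its values were seen. Without the filter, limma gave it a change of -3.63 with ethanol at 160 kcal (adjusted p = 0.0456), where the tested Cyp2b3 probe sets gave 0.55 and -0.40. The annotation does not say which part of the transcript each of these probe sets reads.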
